A study of Drosophila melanogaster with 2 samples.

Results

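Aristaless peaks that sit at, or just inside, the start of a single gene were examined here as one set of 181 regions. A peak belonged to the set when its summit, the base of highest signal within it, lay 0 to 500 bp downstream of the nearest start of transcription (TSS) of any protein-coding gene. Summits within 500 bp of the TSSs of a head-to-head gene pair were set apart. The 181 members made up 4.74% (95% Wilson interval 4.11 to 5.46%) of the 3822 peaks on the 7 chromosome arms, in a list of 3848. Of the other peaks, 1005 lay upstream of a single TSS, 772 lay at head-to-head promoters and 1864 lay over 500 bp from any protein-coding TSS. The members belonged to 173 genes, 8 of which held 2 members each. For 5 members, TSSs of different genes were equally near, and a TSS with the summit downstream of it was then taken first.

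The data come from chromatin immunoprecipitation followed by sequencing (ChIP-seq) on Drosophila melanogaster. Whole embryos of the al-GFP strain, aged 0 to 24 h and carrying a transgene that fuses al to eGFP, were used, and the fusion protein was precipitated with an antibody against GFP. There is 1 group of 2 biological replicates, sheared by sonication to fragments of 200 to 800 bp, and the control libraries that the labels name as possible were not analysed here. Every cell type and stage of those embryos is mixed in each library, and a tagged protein stands in for the native one. With 1 group, no condition was compared: all contrasts below are between kinds of peak in the same libraries. Peaks are not replicates, so each interval on a share covers counting error over peaks only.

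Aristaless is a paired-class homeodomain protein known for patterning the tips of the legs and antennae and parts of the wing. Homeodomains of this class bind DNA at a TAAT core, singly or as pairs on inverted cores. The start of a fly gene carries core promoter elements, among them the TATA box upstream of the TSS, the DRE bound by the zinc finger protein DREF, and Motif 1 bound by M1BP. The DRE and Motif 1 are common at broadly expressed genes such as those for ribosomal proteins. Downstream of the TSS come the 5′ UTR, the first coding bases and, in many fly genes, a first intron that can hold enhancers.

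The sequences on which the motif results rest are shown in 3 sets, each as 30 bases on the strand of the gene, 5′ to 3′, from the release 6 (dm6) genome sequence of RefSeq. The first set holds all 6 members with a DRE within 100 bp of the summit, with the 8-base element in capitals.
RpS15Aa, chrX:13337695-13337724, minus strand: gtccggctaacTATCGATAggcacgttgag
RpL26, chr3L:18898850-18898879, plus strand: gatgacagtgtTATCGATActagctgaatt
RpS29, chr3R:9778046-9778075, plus strand: atcgtggaaaaTATCGATActgccaccccc
cnc, chr3R:23190146-23190175, minus strand: ttacagtgcacTATCGATAtggaggaccca
Smn, chr3L:16581594-16581623, minus strand: atgctgataagTATCGATActatcgtgcgg
pug, chr3R:10696491-10696520, plus strand: aaattcaagctTATCGATAaataaaatatt

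The second set holds the strongest pair of members with Motif 1 in capitals. Mer carries it in the sense direction and CG4098 carries its reverse complement.
Mer, chrX:19693493-19693522, minus strand: atctaacggctGGTCACACTgtctatgttt
CG4098, chr3L:16609367-16609396, minus strand: atatgcggcctAGTGTGACCagctggtcct

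The last set holds homeodomain sites, in capitals: the strongest pair of members with the single core TAATTA, then all 5 members with inverted TAAT cores in the 2-bp or 3-bp spacing of paired-class dimers.
Cftr, chr3R:24543186-24543215, minus strand: cgcctgaaatcaTAATTActaaccgaccga
hng3, chr3L:738909-738938, minus strand: tccaattggaacTAATTAaaattatgataa
Hr78, chr3L:21497086-21497115, minus strand: aacatcaataTAATATATTAtaatacattt
Gli, chr2L:15762044-15762073, minus strand: actttaaaaaTAATTTATTAatttagacag
CG46339, chr3R:26924110-26924139, plus strand: aaagaaatctTAATTAATTAaggctatgat
dbo, chr3L:15827261-15827290, plus strand: tttcagtttTAATTAAATTAggttgaagat
Rsod, chr3R:30170762-30170791, minus strand: tttatgcataTAATTATATTAttcattcat

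Downstream summits were far fewer than upstream ones, and the imbalance set in within a short distance of the TSS. Of the 1186 peaks at single TSSs, 181 (15.3%, 13.3 to 17.4%) were downstream. Replicate 1 alone gave 136 downstream and 834 upstream peaks (14% downstream). Replicate 2 alone gave 89 and 579 (13.3%), so the share was 13.7% ± 0.495 (SD, n = 2). In the first 25 bp the counts were 26 downstream and 45 upstream, and in the first 150 bp they were 100 and 457.

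The members lay at a median of 130 bp from the TSS, with quartiles at 42 and 332 bp, and the upstream peaks at 164 bp, with quartiles at 93 and 262 bp. Within 50 bp of the TSS lay 50 members, another 50 lay at 51 to 150 bp, 27 at 151 to 300 bp and 54 at 301 to 500 bp. Per 25 bp the count was lowest between about 250 and 300 bp and higher again beyond, as the plot of summit distances shows. The members nearest the ends of the window were those of RpS15Aa, with its summit on the annotated TSS (signal 171), and of pAbp, the poly(A)-binding protein gene, at 493 bp (signal 99.1). Just outside it lay a summit 1 bp upstream of the TSS of CG10809 (signal 89.3) and one 501 bp downstream of that of CG5854 (signal 48.8).

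**Figure D1:**
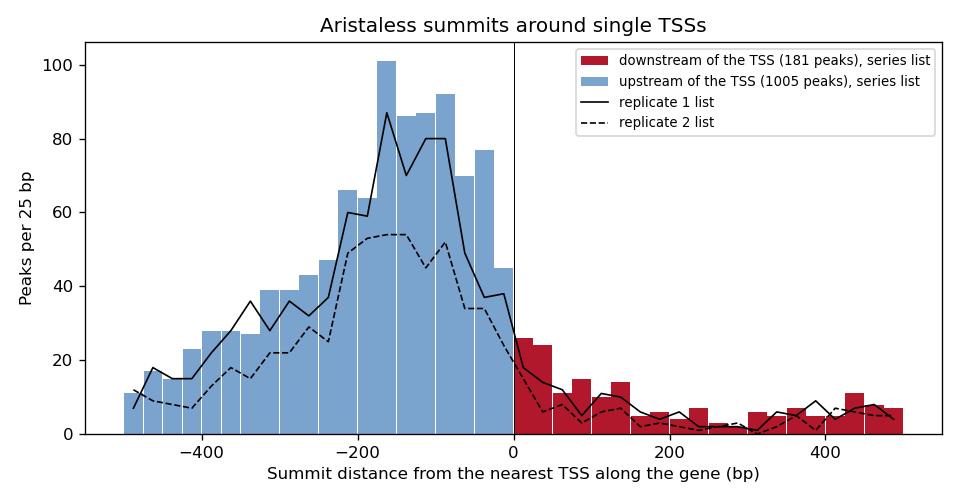
Number of peaks per 25 bp (vertical axis) against the distance of the summit from the nearest single TSS along the gene in bp (horizontal axis; negative is upstream), for the series list (bars) and each replicate's own list (lines). In all 3 lists the counts downstream of the TSS are below those at the same distance upstream, except for equal counts of 7 at 400 to 425 bp in replicate 2, with 181 downstream and 1005 upstream peaks in the series list.

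Which side of the TSS a summit fell on was mostly the same in both libraries. The summit of the overlapping peak in the ranked list of replicate 1 lay at or downstream of the same TSS for 163 of 181 members (90.1%), and in that of replicate 2 for 164 of the 177 that overlapped a peak there (92.7%). Both replicates placed it downstream for 156 of 177 (88.1%). Among members over 50 bp from the TSS this was 125 of 129 (96.9%). The exceptions there, Shrm, Karl, psq and Apoltp, each had a stronger summit within 500 bp. Since the strongest overlapping peak was taken, a replicate summit can be that of such a neighbour. The series peaks also derive from these same libraries. Upstream peaks kept their side more often, 986 of 1003 (98.3%) in replicate 1 and 952 of 971 (98%) in replicate 2. Of them 12.1% lay within 50 bp of the TSS, against 27.6% of members, and this comparison was not made by distance. The median shift of a replicate's summit, regardless of direction, was 11 bp in replicate 1 and 19 bp in replicate 2. The sides of members within 50 bp of the TSS are therefore less certain than those of members further in.

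Signal, the authors' own measure of enrichment on a scale that no source used here defines, had a lower median over the downstream peaks than over the other promoter peaks, a gap that was small next to the TSS and wider further out. The median was 72.6 over the 181 members (quartiles 58.8 and 116), against 99.2 over upstream peaks, 108 over head-to-head peaks, 81.8 over peaks far from any TSS and 90.2 over all peaks. Within 50 bp of the TSS it was 68.5 downstream and 71.6 upstream. At 51 to 150 bp it was 71.0 and 99.4, at 151 to 300 bp 67.2 and 121, and at 301 to 500 bp 84.8 and 99.99. In the list of replicate 1 the medians were 59.3 for downstream and 71.6 for upstream peaks. In the list of replicate 2 they were 50.8 and 61.8. Over the replicates the medians averaged 55.0 ± 6.04 downstream and 66.7 ± 6.97 upstream (SD, n = 2 each); these ranges overlap, but the downstream median was the lower within each replicate.

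Downstream peaks as a whole were found in both replicates less often than upstream and head-to-head peaks, but not those next to the TSS. Of the 181 members, 68 (37.6%, 30.8 to 44.8%) overlapped a thresholded peak of each replicate, against 51.6% of upstream peaks, 62.0% of head-to-head peaks, 40.6% of peaks far from any TSS and a background of 47.7% of all peaks. The difference from upstream peaks was -14.1 percentage points (95% Newcombe interval -21.5 to -6.20). Within 50 bp of the TSS the shares were 34% downstream (17 of 50) and 33.6% upstream (41 of 122), at 51 to 150 bp 32% and 50.7%, at 151 to 300 bp 40.7% and 58.1%, and at 301 to 500 bp 44.4% and 52.7%. Replicate 1 held 122 members (67.4%), replicate 2 held 76 (42%) and neither held 51 (28.2%). Over all peaks these shares were 73.0%, 53.5% and 21.2%, and over peaks far from any TSS 67.9%, 46.5% and 26.1%. A q value above 0.05 of their own belonged to 59 members (32.6%), against 18.7% of upstream peaks, 31.2% of peaks far from any TSS and 24.6% of all peaks. The conservative list held 147 members (81.2%), against 86.1% of upstream peaks and 83.4% of all peaks, and that difference of -4.85 points had an interval of -11.5 to 0.658.

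Signal moved with that share. When all 3822 peaks were divided by signal into 4 groups of equal size, numbered 1 (weakest) to 4 (strongest), 61, 48, 42 and 30 members fell in groups 1, 2, 3 and 4. Their share of the single-promoter peaks was 24.2%, 15.5%, 14.1% and 9.15% in the same order. Within a signal group, detection in both replicates was close on the 2 sides of the TSS: 3.28% downstream and 3.14% upstream in group 1, 14.6% and 14.9% in group 2, 69.0% and 71.4% in group 3, and 100% and 98.0% in group 4. The series list and the replicate lists derive from the same libraries, so detection is tied to signal on either side of the TSS. The 2 downstream peaks behind the group 1 share, at aru and Cipc, each had a stronger summit within 500 bp. Whether signal accounts for the whole difference in detection was not tested.

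**Figure D2:**
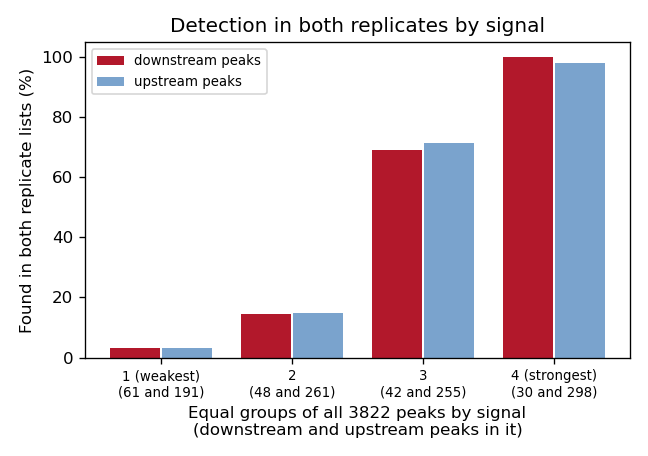
Share of peaks that overlap a thresholded peak of both replicates (vertical axis, percent; linear from 0) in each of 4 equal groups of all peaks by signal (horizontal axis, with the number of downstream and upstream peaks in each group). The bars of downstream and upstream peaks stand close to each other in every group, from 3.28% and 3.14% in the weakest to 100% and 98.0% in the strongest.

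The strongest members were at genes of unrelated kinds. The top one lay 86 bp into the 5′ UTR of GstE13 on 2R, a glutathione S-transferase gene, with a signal of 1120 in the series list, 619 in replicate 1 and 502 in replicate 2. Next came ph-p, which encodes a subunit of the Polycomb repressive complex PRC1, with a summit 475 bp from the TSS on X and signals of 707, 452 and 259. CG18622 (495) and CG9399 (401) followed, both on 3R and both in a 5′ UTR. Every one of the 12 strongest members was found in both replicate lists. In 8 of the 12 the summit lay in an annotated exon.

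Among the 12 were 4 in first introns. They were Cftr, the fly homologue of a chloride channel of epithelia, 185 bp from its TSS (signal 374; 257 in replicate 1 and 120 in replicate 2), CG8128 at 487 bp (348), egh, a glycosyltransferase gene, at 366 bp (270), and scramb2, a phospholipid scramblase gene, at 348 bp (267). The others were Ufsp1, which encodes a protease for the ubiquitin-like protein UFM1, at 3 bp (354), CG2811 at 30 bp (284), Trpm, a cation channel gene, at 154 bp (261), and CG4497 at 9 bp (253). Of the 12, 2 changed side with the library: the summit of CG4497 lay 2 bp upstream of the TSS in replicate 1, and that of Ufsp1 12 bp upstream in replicate 2.

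The summits of ph-p and CG18622, strong members whose windows held no TAATTA, DRE or Motif 1, are shown with the summit base in capitals.
ph-p, chrX:2137881-2137910, minus strand: cgttttcattttacTtatcgtaacattgtt
CG18622, chr3R:16986650-16986679, minus strand: aaatggcattggccAaatcaggtttttggc

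Between the libraries, replicate 1 had the higher signal at 154 of the 177 members measured in both, with a median log2 ratio of replicate 1 over replicate 2 of 0.64 (quartiles 0.26 and 1.08); upstream peaks had a median of 0.59. Among the 100 strongest members the ratio was lowest at Fmr1, the fragile X RNA-binding protein gene (33.7 in replicate 1 and 47.3 in replicate 2), Mob2, a kinase activator gene (39.9 and 49.9), and jagn (49.9 and 57.6). It was highest at scyl, which encodes an inhibitor of TOR signalling (57.3 and 19.1), Ccm3 (70.4 and 23.5) and the bromodomain gene Brd7-9 (81.7 and 27.1). Replicate signals were taken from the strongest overlapping ranked peak, which for a weak member beside a strong peak can be the neighbour's.

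**Figure D3:**
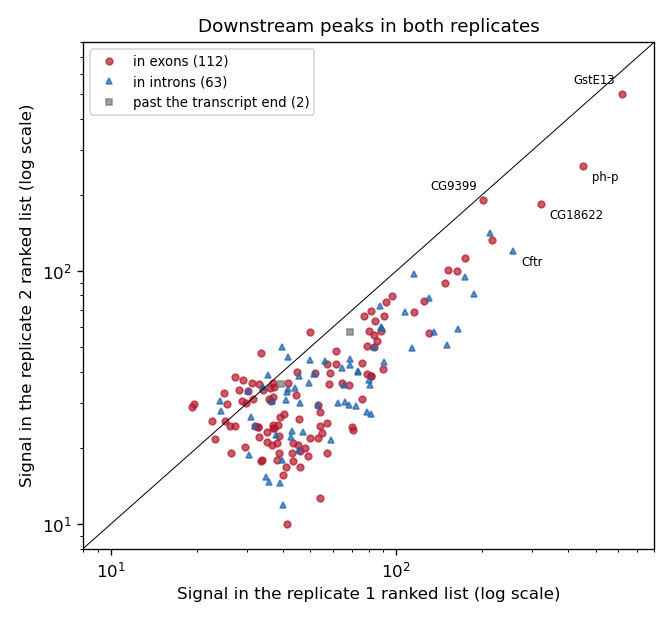
Signal of each downstream peak in the ranked list of replicate 1 (horizontal axis) and of replicate 2 (vertical axis), both on log scales with signal in the authors' own unit, for the 177 members with a value in both; symbols mark summits in exons, in introns and past the transcript end, and the line marks equal signal. Most points, 154 of 177, lie below the line, and GstE13 and ph-p stand highest in both libraries.

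The weakest members lay beside a stronger peak. A stronger summit lay within 500 bp of 17 members (9.39%, 5.95 to 14.5%), against 2.99% of upstream peaks, a difference of 6.41 points (2.74 to 11.6). The share was 4.79% of head-to-head peaks, 4.67% of peaks far from any TSS and 4.47% of all peaks. In 14 of the 17 the stronger summit was 199 to 227 bp away, and in 12 of the 17 it was on the promoter side. All 13 members with a signal under 30 had one, a share that was not counted over other peaks as weak. Fas2, the fasciclin 2 adhesion gene, and Pkc98E, a protein kinase C gene, each held both peaks as members, with signals of 83.9 and 3.86 in Fas2 and 65.3 and 3.21 in Pkc98E, in each case 200 bp apart. Among the other genes with 2 members the summits were further apart, up to 18122 bp at alternative promoters of Trpm, or also about 200 bp apart, as in CG7272 and ogre.

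Most summits lay in transcribed but untranslated sequence. The 5′ UTR held 109 of 181 (60.2%, 52.9 to 67.1%), the first intron 59 (32.6%, 26.2 to 39.7%), a later intron 5, coding sequence 6 (3.31%, 1.53 to 7.04%), and 2 lay past the end of a short transcript. Placing the same 181 distances at each of the 19630 protein-coding TSSs gave 51.3% in the 5′ UTR, 16.2% in the first intron and 30.1% in coding sequence. Placing them at the 991 TSSs of the upstream peaks gave 62.1%, 19.1% and 17.4%. Relative to both placements, coding sequence was under-represented and first introns were over-represented beyond counting error among the downstream peaks, while the 5′ UTR share lay above the placement at all TSSs and near that at the TSSs of upstream peaks.

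First introns held few summits close to the TSS and most of those far from it. None of the 50 members within 50 bp was intronic, 10 of 50 at 51 to 150 bp were in a first intron, 12 of 27 at 151 to 300 bp, and 37 of 54 at 301 to 500 bp. The members' first exons had a median length of 243 bp. Intron shares at placed positions were not counted by distance, so the rise cannot be told apart from that of gene structure alone. The intronic members had a median signal of 89.97 and 30 of 64 (46.9%, 35.2 to 58.9%) were in both replicate lists. The exonic ones had a median signal of 66.9 and 37 of 115 (32.2%, 24.3 to 41.2%) were in both, so these intervals overlap.

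**Figure D4:**
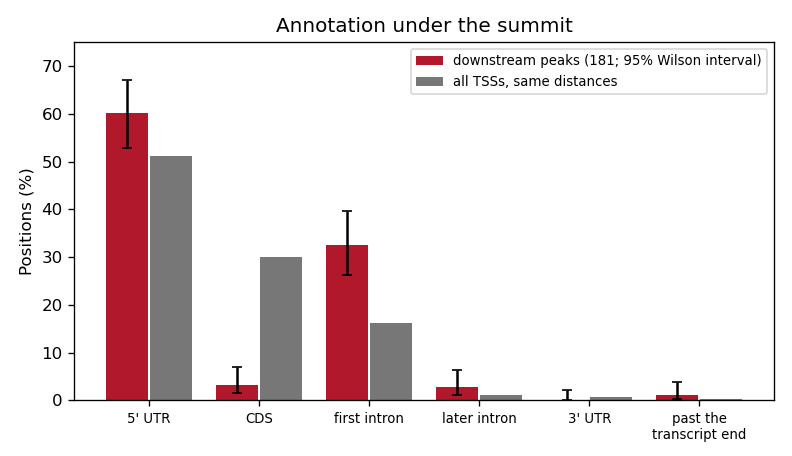
Share of positions (vertical axis, percent; linear from 0) by annotation under the summit (horizontal axis) for the 181 downstream peaks, with 95% Wilson intervals, and for the same distances placed at all protein-coding TSSs. Coding sequence holds 3.31% of downstream summits and 30.1% of the placed positions, and first introns hold 32.6% and 16.2%.

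The downstream peaks had on average more G and C than the upstream peaks, except next to the TSS, and less than the start of a typical gene. The 201-bp windows around their summits had 41.3% ± 8.62 GC (SD over 181 peaks), against 35.8% ± 7.50 over upstream peaks, 34.1% over head-to-head peaks and 36.2% over all peaks. In the replicate lists the means were 39.6% downstream and 35.3% upstream in replicate 1, and 39.9% and 35.0% in replicate 2, averaging 39.8% ± 0.245 and 35.2% ± 0.247 (SD, n = 2 each), so the groups of replicate means did not overlap. By distance, the means were 42.3% ± 6.94 downstream and 41.4% ± 7.22 upstream within 50 bp of the TSS, 42.7% and 37.1% at 51 to 150 bp, 40.7% and 34.1% at 151 to 300 bp, and 39.2% and 33.2% at 301 to 500 bp. At the same distances from all TSSs the mean was 44.8%, and from the TSSs of upstream peaks 45.8%. The gap to all TSSs widened with distance: 42.3% in members and 42.8% at all TSSs for 0 to 50 bp, 42.7% and 44.1% for 51 to 150 bp, 40.7% and 46.0% for 151 to 300 bp, and 39.2% and 46.6% for 301 to 500 bp. It was present in exons (43.3% in members and 45.7% in placed exon positions) and in introns (37.7% and 40.8%).

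Of the homeodomain sites, the core TAATTA, searched on both strands within 100 bp of the summit, was in 30 members (16.6%, 11.9 to 22.7%). That is near the 16% of upstream peaks (difference 0.55 points, -4.73 to 7.02), the 16.5% of peaks far from any TSS and the background of 17.7% of all peaks. Head-to-head peaks held the core more often, in 23.3% (difference -6.74 points, -12.4 to -0.01). Windows at the same distances from all TSSs held the core in 8.36%, and from the TSSs of upstream peaks in 8.27%, both below the members' interval. AT content moves with this count: the members' windows were also less GC-rich than the placed ones, and its part in the difference was not tested.

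The share with TAATTA was 8% (4 of 50) within 50 bp of the TSS, near the 8.75% of all TSSs at those distances. It was 18.0% against 8.66% at 51 to 150 bp, 18.5% against 8.15% at 151 to 300 bp, and 22.2% against 7.84% at 301 to 500 bp. In exons 15 of 115 members held the core (13.0% against 7.23% of placed exon positions), and in introns 15 of 64 (23.4% against 13.5%). Of the 30, 28 had the site downstream of the TSS, at a median distance of 42.5 bp between its centre and the summit. In Cftr the centre lay 39 bp from the summit, and in hng3 2 bp.

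The inverted pairs of cores were rare. The 2-bp spacing was in 3 members (1.66%), at Hr78, a nuclear receptor gene, Gli, the gene of the junction protein Gliotactin, and CG46339. It was in 3.38% of upstream peaks (difference -1.73 points, -3.43 to 1.52), 2.90% of all peaks and 0.851% of windows placed at all TSSs. The 3-bp spacing was in 2 members (1.10%), at dbo and Rsod. It was in 2.89% of upstream peaks (difference -1.78 points, -3.25 to 1.18), 2.98% of all peaks and 0.985% of windows placed at all TSSs. All 5 were intronic and all 5 sites lay downstream of the TSS. In 3 of the 5 windows TAATTA was also present, as the TAATTA letters inside the pairs of CG46339, dbo and Rsod show. Signals were between 67.6 at CG46339 and 102 at Hr78, none of them among the strongest.

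The promoter elements were each in 6 members. The DRE, TATCGATA on either strand, was in 6 members (3.31%, 1.53 to 7.04%), against 6.07% of upstream peaks, 12.2% of head-to-head peaks and 4.37% of all peaks. The difference from upstream peaks was -2.75 points (-5.19 to 1.20), which includes 0, and that from head-to-head peaks was -8.86 points (-11.9 to -4.57). Windows at the same distances from all TSSs held it in 2.30%. Within 50 bp of the TSS 4 of 50 members held it (8%, 3.15 to 18.8%), against 28 of 122 upstream peaks at those distances (23%, 16.4 to 31.2%) and 5.90% of windows placed at all TSSs. With canonical TSSs alone the shares over the 500 bp were 2.05% downstream and 8.20% upstream. Counted from the TSS instead of the summit, a DRE starting 100 to 0 bp before it was at 8 of the members' 177 TSSs (4.52%, 2.31 to 8.66%). That is near the 5.15% of the TSSs of upstream peaks and the 5.52% of all TSS positions.

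In 4 of the 6 members the DRE lay upstream of the TSS, starting 8 bp before it in RpS15Aa, 14 bp in RpL26, 32 bp in pug and 65 bp in Smn, the gene of the survival motor neuron protein of snRNP assembly. It lay downstream in RpS29, starting at 15 bp, and in cnc, a bZIP transcription factor gene, starting at 255 bp. Motif 1, GGTCACACT, was in 6 members (3.31%, 1.53 to 7.04%), against 2.39% of upstream peaks, 1.41% of all peaks, a background just below that interval, and 1.83% of windows placed at all TSSs. Its strongest holders were Mer, the gene of the Hippo pathway protein Merlin (signal 180), and CG4098 (116). No member held both TAATTA and either promoter element. As 12 members held a promoter element and 16.6% of all members held TAATTA, that absence carries little information.

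**Figure D5:**
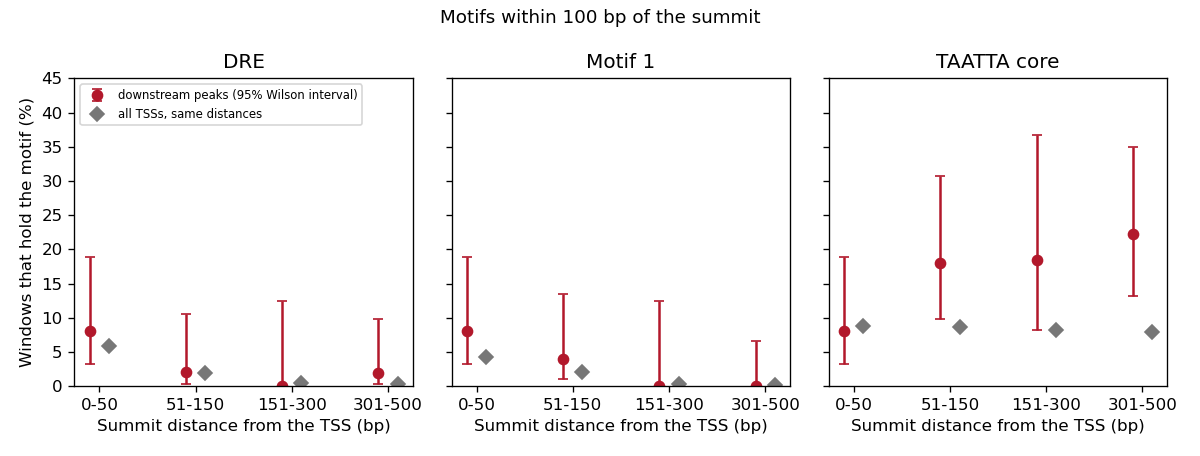
Share of 201-bp windows that hold the DRE, Motif 1 or the TAATTA core (vertical axes, percent; linear from 0) by distance of the summit from the TSS in bp (horizontal axes), for the downstream peaks with 95% Wilson intervals and for the same distances at all protein-coding TSSs. TAATTA goes from 8% of members at 0 to 50 bp to 22.2% at 301 to 500 bp, beside 8.75% and 7.84% of all TSSs, and the DRE and Motif 1 intervals overlap the shares at all TSSs in the first 3 distance ranges.

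A TATA box, TATAAA on either strand within 100 bp of the summit, was less common in downstream than in upstream peaks as a whole, 23.8% against 36.5% (difference -12.8 points, -19.1 to -5.45). Over all peaks the share was 36.5%. These letters are AT-rich, as the upstream windows are. Counted at its usual place, starting 40 to 20 bp before the TSS on the sense strand, it was at 4 of the members' 177 TSSs (2.26%, 0.882 to 5.67%), against 3.83% of the TSSs of upstream peaks and 6.86% of 19276 TSS positions in all. Windows placed at all TSSs held TATAAA in 19.1%, but the comparison turned with distance: 14% of members (6.95 to 26.2%) against 25.9% of placed windows within 50 bp of the TSS, and 35.2% (23.8 to 48.5%) against 15.2% at 301 to 500 bp. Upstream peaks held it in 14.8% and 37.8% at those distances.

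The GAGA element GAGAGAG, bound by the GAGA factor, was in 9 members (4.97%, 2.64 to 9.18%), near the 5.77% of upstream peaks. That was above the 2.84% of windows placed at all TSSs and the 3.38% of all peaks by less than counting error, and above the 0.518% of head-to-head peaks. For the other motifs searched on both strands, shares are given for members, windows placed at all TSSs, upstream peaks and all peaks, in that order. The E-box CAGCTG was in 11.6%, 11.6%, 8.16% and 8.32%, and the initiator TCAGT in 33.1%, 34.8%, 33.9% and 32.6%. The Zelda site CAGGTAG was in 1.10%, 1.30%, 0.597% and 1.02%, and the TCT initiator CTCTTT in 17.1%, 11.7%, 13.7% and 12.8%. Counted only where it started within 5 bp of the TSS, the initiator was at 21 of the members' 177 TSSs (11.9%). That compares with 16.3% of the TSSs of upstream peaks and 11.8% of all TSS positions. The TCT initiator was so placed at 1 of the 177 (0.565%), against 0.807% and 0.368%. The BEAF motif CGATA, which the letters of the DRE contain, was in 35.4% of members and 27.7% of windows placed at all TSSs. It was in 30.6% of all peaks, 36.1% of upstream peaks and 48.2% of head-to-head peaks (difference from the last -12.8 points, -20.3 to -4.82). Within 50 bp of the TSS that motif was in 29 of 50 members (58.0%), against 36.4% of windows placed at all TSSs. Upstream peaks were not counted for it by distance. Of the 12 motifs searched, counting the 2 dimer spacings, 37 members held none, a count that was not made for other peaks or placed windows.

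Genes with a downstream peak tended to have several promoters. More than 1 TSS was annotated for 130 of 173 (75.1%), against 53.0% of the genes with an upstream peak and 26.5% of all 13968 protein-coding genes. The nearest TSS was the first of its gene for 105 members (58.0%), against 69.6% of upstream peaks. For 51 members (28.2%) another TSS lay ahead of the summit within 500 bp, so that the same summit was upstream of that second start. The genes were long, with a median of 5034 bp, against 5581 bp for genes with an upstream peak and 2164.5 bp for all. A gene with more annotated TSSs offers more places for a summit to fall behind one, and the part of this in the set's make-up was not tested.

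By chromosome, 45 members (24.9%, 19.1 to 31.6%) were on X, against 20.6% of upstream peaks (difference 4.26 points, -2.03 to 11.4) and 20.1% of all peaks. The rest were spread over 2L (29), 2R (31), 3L (38) and 3R (38), with none on 4 or Y.

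Of the gene lists examined, cytoplasmic ribosomal protein genes had the most members by count, though not by share. A downstream peak lay at 5 of 92 (5.43%), where 1.24% of all protein-coding genes had one, but upstream and head-to-head peaks were also frequent there, at 21 and 20 of the 92. The 5 were RpS15Aa at 0 bp (signal 171; 92.4 in replicate 1 and 75.2 in replicate 2), RpL26 at 86 bp (161; 87.9 and 72.8), RpS29 at 4 bp (140; 77.3 and 66.3), RpL35 at 116 bp (68.2) and RpS23 at 3 bp (48.8). Of the 5, 4 lay between 0 and 86 bp from the TSS, and 4 of the 5 held a DRE or Motif 1 within 100 bp of the summit, RpS23 being the one with Motif 1. For 2 of the 5 neither replicate placed the summit downstream: it lay 4 and 12 bp upstream of the TSS of RpS15Aa in replicates 1 and 2, and 66 and 71 bp upstream of that of RpS23.

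Chromatin regulators had a few members each, where 1.24% of all protein-coding genes had a downstream peak. Among 16 insulator and promoter-binding factor genes there were 2 (12.50%), at Trl, which encodes the GAGA factor itself (143 bp from the TSS, signal 243; 149 in replicate 1 and 89.9 in replicate 2), and pita, an insulator zinc finger gene (123 bp, 70.3). Trl was also the 1 of 16 Trithorax group genes (6.25%). Of 19 Polycomb group genes ph-p and Asx had a member (10.5%). The gene ph-p had 2, at 475 bp (707) and 102 bp (73.6), while the peak at Asx was a weak one (11.3) beside a stronger summit 199 bp away. Upstream and head-to-head peaks lay at 1 and 2 of the insulator and promoter-binding factor genes, 1 and 0 of the Trithorax group genes, and 1 and 4 of the Polycomb group genes.

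Single members were found in 3 more lists. Hsp83, the gene of the Hsp90 chaperone, was the 1 of 13 heat shock and chaperone genes (7.69%; 102 bp, signal 135), aux, the gene of the clathrin-uncoating factor auxilin, the 1 of 12 clathrin and AP-2 genes (8.33%; 28 bp, 52.1), and Dp, the gene of the dimerization partner of E2F factors, the 1 of 27 cell cycle and replication genes (3.70%; 429 bp, 169). Upstream and head-to-head peaks lay at 3 and 2 of the heat shock and chaperone genes, 2 and 2 of the clathrin and AP-2 genes, and 3 and 4 of the cell cycle and replication genes. With a member at 1 or 2 genes of each list, the downstream shares move widely with a single gene.

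No downstream peak lay at any gene of the other 12 lists. These were 73 mitochondrial ribosomal protein, 52 translation initiation and elongation factor, 32 aminoacyl-tRNA synthetase, 48 proteasome, 25 Mediator, 15 TBP-associated factor and 18 splicing factor genes. They were also 25 appendage patterning, 8 Hox, 25 paired-class homeobox, 179 chemoreceptor and 118 cuticle protein genes. Of these, head-to-head peaks lay at 12 mitochondrial ribosomal protein and 7 proteasome genes, and at a share of 1.24% most of the smaller lists would hold fewer than 1 gene, so an absence there carries little information.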

How the data were processed

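Peak lists in the dm6 assembly were used: a thresholded and a ranked list for each replicate, and a thresholded and a conservative list for the series (8 lists per the labels, of which the ranked lists of the series were not used). The authors deposited a signal value per peak, whose scaling is unknown, a −log10 q value and a summit offset. How reads were aligned, peaks called and lists filtered was not given in the sources used here. No read counts were available to these analyses, so sequencing depth is unknown and no interval can be put on a signal.

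Summits were placed against the Ensembl release 115 annotation (BDGP6.54) and the RefSeq sequence of the same assembly. Overlap of lists meant at least 1 bp. Motifs were searched within 100 bp of the summit on both strands. Windows at the members' distances from other TSSs describe the local sequence. Shares carry 95% Wilson intervals and differences Newcombe intervals, over peaks only. Replicate spread is the SD of the 2 replicate lists, treated as 1 group without a test. The classification, the motif search and the Wilson interval were tested on simulated data, while the overlap and Newcombe functions were not. The members, gene lists, motifs and comparisons were chosen with earlier results of these data known. Named genes are the 12 strongest members, up to 3 per gene list, the 2 strongest per motif, the 3 most extreme replicate ratios each way among the 100 strongest, and the ends of the distance window. Holders of a motif or list with few members, genes with 2 peaks and Asx beside its neighbour were named after their values were seen. The alternatives tried were the conservative list, the replicate lists, windows of 250 and 1000 bp, peak middles, canonical TSSs, no head-to-head exclusion, a q of at most 0.05, a motif window of 50 bp and an overlap of 50%. Computations ran in Python 3.11.15 (pandas 2.3.3, numpy 2.4.6, scipy 1.17.1), and figures in matplotlib 3.10.9.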

Additional observations from a re-analysis of the deposited data

How the results depend on the processing

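Of 83 recomputed values, 38 moved by less than 1 SD between the replicate lists and 45 by more. For overlap with both replicate lists that SD is 28.5 points, since each replicate's list overlaps itself. Under the other settings with both libraries, downstream peaks had the lower median signal, the lower share found in both replicates and the higher GC content than upstream peaks. In the list of replicate 2 alone the share found in both was 91.0% downstream and 89.3% upstream. No paired analysis was possible because the labels give 1 group of samples; contrasts between kinds of peak are given within each replicate.

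Leaving out each replicate in turn gave 89 to 136 members, 4.26 to 4.56% of all peaks, median distances of 144 to 148 bp, median signals of 50.8 to 59.3, 50.7 to 91.0% found in both, 3.37 to 4.41% with a DRE, 16.9 to 19.1% with TAATTA and 58.8 to 60.7% in exons. The conservative list gave a median distance of 125 bp, 14.5% with TAATTA and 61.2% in exons. A window of 250 bp gave 3.95% of all peaks, 72 bp, 5.30% with a DRE, 13.9% with TAATTA and 85.4% in exons. A window of 1000 bp gave 335 members, 8.77% of all peaks, 533 bp, a signal of 80.5, 1.19% with a DRE, 12.54% with TAATTA and 34.3% in exons. Canonical TSSs gave 3.82% of all peaks, 2.05% with a DRE, 14.4% with TAATTA and 71.2% in exons. Without the head-to-head exclusion there were 297 members, 7.77% of all peaks, at 86 bp, with a signal of 83.9, 5.39% with a DRE and 72.7% in exons. Peaks with a q of at most 0.05 gave 4.24% of all peaks, a signal of 102, 4.10% with a DRE and 57.4% in exons. A motif window of 50 bp gave 1.10% with a DRE and 8.84% with TAATTA. Leaving out peaks with a stronger summit within 500 bp, chosen after seeing the data, gave 4.49% of all peaks, a signal of 78.7 and 62.2% in exons. The cause of each shift beyond the changed selection itself was not tested.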
